A study of Mus musculus with 10 samples.

Results

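The genes described here are 27 mouse genes that receive, make, move and break down GABA, the main inhibitory transmitter of the brain, out of 55536 genes in the deposited count tables. They were chosen by name and function, with earlier results of these data known, and were found by matching the gene identifiers of the tables to GENCODE M21 symbols. The list holds 14 subunits of ionotropic GABA receptors, both subunits of the GABA-B receptor, 2 enzymes of GABA synthesis, 3 GABA transporters, 2 enzymes of GABA breakdown and 4 proteins of the inhibitory postsynapse. All 27 were present in the tables with the coordinates of that annotation.

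GABA is made from glutamate by glutamate decarboxylases, loaded into vesicles, released at inhibitory synapses and taken up again by neurons and astrocytes. It opens GABA-A receptors, chloride channels assembled from several subunits whose mix decides where the channel sits and how long it stays open, and it signals more slowly through GABA-B receptors, which couple to G proteins. In the cerebellum, Purkinje cells and the interneurons of the cerebellar cortex release GABA, and the abundant granule cells, which are glutamatergic, carry a receptor type built with the alpha subunit Gabra6 and the delta subunit Gabrd.

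The data are 10 RNA-seq libraries, 1 of cerebellum and 1 of cerebral cortex from each of 5 mice aged 1 year. The knockout (KO) mice, KO 1 and KO 2, were homozygous throughout the body for a frameshift deletion made with CRISPR/Cas9 in Snx14, a sorting nexin with a part in lipid handling. Controls 1 and 2 were labelled Het, with 1 copy of the deletion, and control 3 was WT. All 3 are controls in the labels and were pooled, and each mouse gave both tissues. The study asked what loss of Snx14 does to a brain region that degenerates and to one that does not.

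The libraries held 16088310 to 22975355 gene counts. Levels are given as counts-per-million (CPM) values on 1 scale for all 10 libraries. Snx14 was at 42.8 and 39.9 CPM in the cerebella of the Het controls, 73.2 in that of the WT control and 15.5 and 17.4 in KO cerebella. In cortex it was at 34.3 and 34.9 CPM in Het, 50.8 in WT and 14.8 and 16.1 in KO libraries, so that 2 of the 3 pooled controls were below the WT level in both tissues. The tissue labels held, since 10 granule cell markers summed to 4277 to 5087 CPM in cerebellum and 152 to 212 in cortex, and 9 cortical excitatory neuron markers to 499 to 579 and 1462 to 2070. Over the 500 most variable genes of a tissue, KO 1 lay farthest out on the first component in cerebellum (41.3% of the variance), and control 2 in cortex (52% of the variance). In those libraries 8 choroid plexus markers summed to 64.6 CPM in cerebellum KO 1 against 1209 to 3439 in the other cerebella, and 14 striatal projection neuron markers to 5813 CPM in cortex control 2 against 885 to 2675 in the other cortices. Control 2 and KO 2 had 155 to 189 CPM of 4 Y-linked genes summed in both tissues, and the other mice 0.0467 to 0.599.

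**Figure D1:**
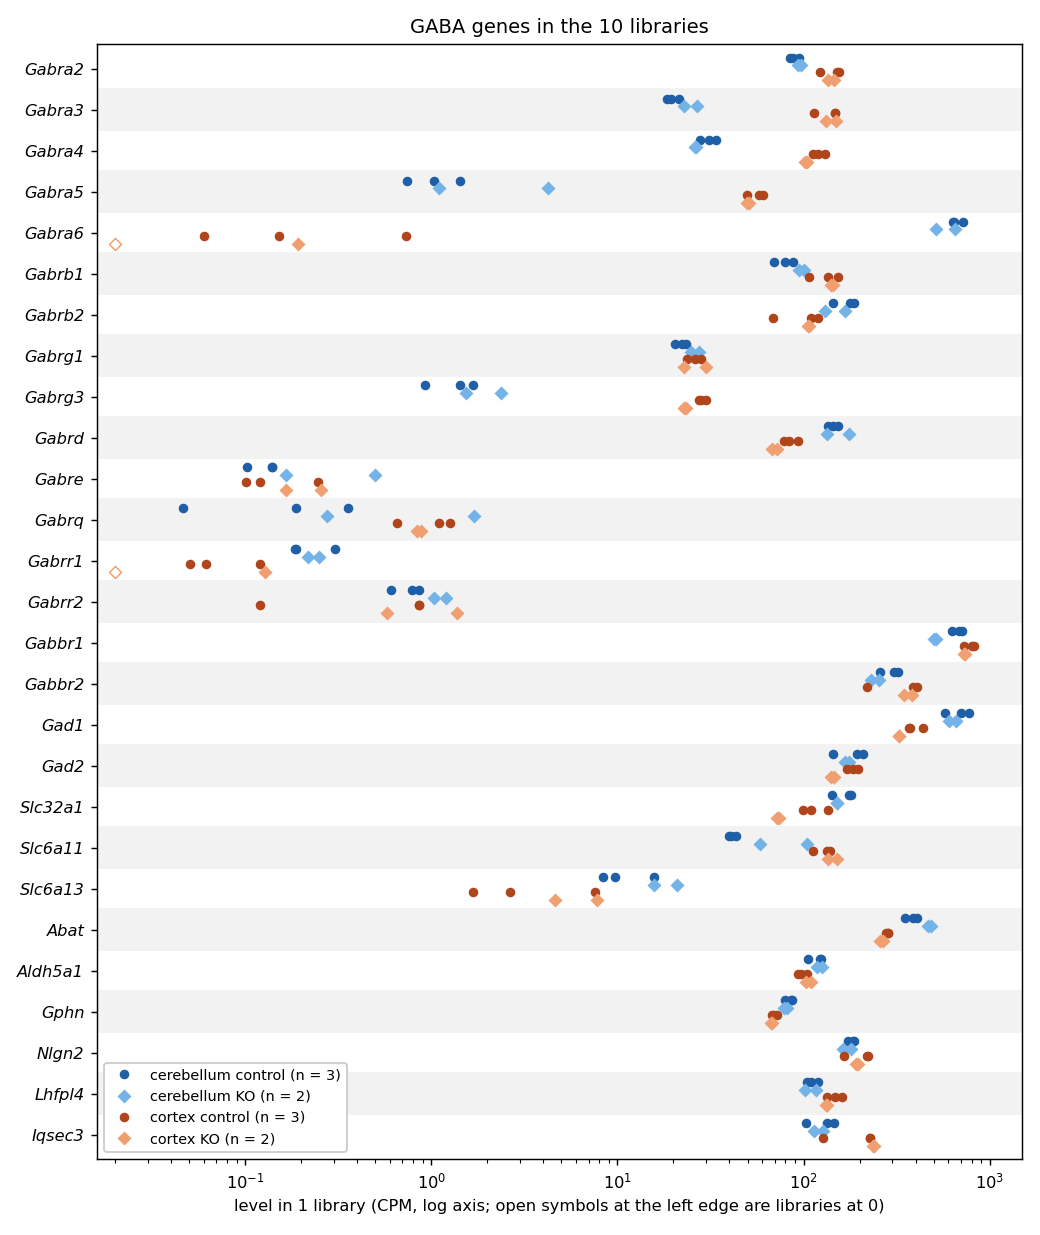
Level of each of the 27 genes in each of the 10 libraries, in CPM on a log axis, with 1 row per gene, circles for control and diamonds for KO libraries and open symbols at the left edge for libraries at 0. Gabra6 spans the widest range, from 518 to 716 CPM in cerebellum to 0.736 CPM or less in cortex, while Gabra5 and Gabrg3 lie the other way.

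The tissue difference was largest at Gabra6, Gabra5 and Gabrg3, and the sequence in front of the first exon is shown for Gabra6 and Gabra5, the alpha subunit genes with the most unequal levels, and for Slc6a11, the gene called in KO cerebellum. Each run holds the 250 bases before the start of the RefSeq transcript on build GRCm38.p6, 5′ to 3′ on the strand of the gene, with CG dinucleotides in capitals. The windows are chr11:42321073-42321322 on the minus strand for Gabra6, chr7:57510060-57510309 on the minus strand for Gabra5 and chr6:114130991-114131240 on the plus strand for Slc6a11.
Gabra6: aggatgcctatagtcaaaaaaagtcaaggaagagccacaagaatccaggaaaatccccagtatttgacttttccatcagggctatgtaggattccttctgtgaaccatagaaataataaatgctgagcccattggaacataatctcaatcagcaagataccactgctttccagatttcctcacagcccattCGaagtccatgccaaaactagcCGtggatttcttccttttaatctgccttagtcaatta
Gabra5: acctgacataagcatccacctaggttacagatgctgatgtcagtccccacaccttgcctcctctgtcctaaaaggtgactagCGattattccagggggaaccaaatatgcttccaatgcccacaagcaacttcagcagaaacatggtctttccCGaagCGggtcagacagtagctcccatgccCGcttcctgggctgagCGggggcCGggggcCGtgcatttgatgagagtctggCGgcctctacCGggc
Slc6a11: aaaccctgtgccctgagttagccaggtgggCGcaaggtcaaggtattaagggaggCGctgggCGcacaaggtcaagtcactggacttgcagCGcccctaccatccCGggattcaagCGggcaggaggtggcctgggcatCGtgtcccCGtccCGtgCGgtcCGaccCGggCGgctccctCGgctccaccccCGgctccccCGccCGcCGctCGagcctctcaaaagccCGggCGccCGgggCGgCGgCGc
The Gabra6 window held 2 CG dinucleotides, and 29% of 32851 such mouse windows held as few. The Gabra5 window held 9, and 40.3% of all windows held as many. The Slc6a11 window held 25, a number that 10.7% of all windows reached. RefSeq windows were found for 25 of the 27 genes, and Abat and Gabrd had no entry. The 31 windows of these genes held from 0 CG dinucleotides at Gabra3 to 37 at Gabbr2, with a median of 12 beside a median of 6 over all windows. CG counts describe these letters only, since methylation was not measured.

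All 5 alpha subunits of the GABA-A receptor analysed here differed between cerebellum and cortex of the control mice. Gabra6 was the most abundant of all 27 genes per length in cerebellum and close to absent in cortex, while Gabra2, Gabra3, Gabra4 and Gabra5 were all lower in cerebellum. Of the 25 genes that passed the filter on low counts in this comparison, 15 were called, 6 higher and 9 lower in cerebellum, by the quasi-likelihood test of edgeR at a Benjamini-Hochberg adjusted p under 0.05 with an absolute log2 fold change over 0.5. Among all 19416 genes tested, 40.5% were called, 19.1% as higher and 21.5% as lower in cerebellum. The median log2 fold change of the 25 genes was -0.20, beside 0.017 over all genes tested. Gabre and Gabrr1 did not pass the filter. With bulk tissue, fewer cells of a type and less RNA per cell cannot be told apart, and p-values here measure the spread between these few mice.

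Gabra6 encodes the alpha subunit that is typical of granule cells (chr11:42306437-42321072, minus strand, 2489 exonic bases). It was at 637, 716 and 645 CPM in the cerebella of controls 1 to 3 and at 0.0599, 0.152 and 0.736 CPM in their cortices. The cortex libraries of the 3 controls held 16 read pairs together and the cerebellum libraries 41797, a ratio of 2197 per unit of depth with a 95% counting interval of 1352 to 3843. The test gave a log2 fold change of 11.06 (SE 0.338, adjusted p = 6e-08 by edgeR's quasi-likelihood test). Of the 16 cortex pairs, 12 came from control 3, and without that library the log2 fold change was 12.47, above the range of the counting interval, which covers counting error only. In KO mice the pairs numbered 24455 and 3, with a ratio of 6476 and an interval of 2216 to 31405. The order of the tissues was therefore the same in all 5 mice.

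Gabra5, an alpha subunit known for receptors outside the synapse, was the mirror case (chr7:57407672-57510059, minus strand). Its control levels were 1.03, 0.74 and 1.42 CPM in cerebellum and 57.4, 60.4 and 49.8 in cortex, with a log2 fold change of -5.72 (SE 0.188, adjusted p = 8.68e-08). Gabra3 was at 18.5, 19.4 and 21.4 CPM in cerebellum and 148, 114 and 148 in cortex, and its log2 fold change was -2.79 (SE 0.123). Gabra4, the alpha subunit that pairs with delta in the forebrain, was at 31.1, 27.9 and 33.9 CPM in cerebellum and 113, 131 and 120 in cortex, and its log2 fold change was -1.97 (SE 0.0983). No cerebellum library of these 3 genes reached the lowest cortex library. Gabra2 differed least, with 84.8 to 94 CPM in cerebellum and 122 to 156 in cortex (log2 fold change -0.69, SE 0.104), again without overlap.

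Levels of different genes were compared per length, as CPM per kilobase of exonic length (FPKM). Of the summed FPKM of the 5 alpha subunit genes analysed here, Gabra6 made up 92.33% ± 0.76 (SD, n = 3) in control cerebellum and Gabra2 4.028% ± 0.3111. Gabra3 and Gabra4 followed with 1.744% ± 0.1673 and 1.768% ± 0.2517, which do not differ beyond their spread, and Gabra5 held 0.1248% ± 0.04434. In control cortex Gabra3 led with 37.57% ± 3.547, above Gabra4 at 21.68% ± 2.729, Gabra5 at 20.39% ± 2.833 and Gabra2 at 20.23% ± 1.623. The last 3 lay within the spread of each other. Gabra6 held 0.1357% ± 0.1542 there.

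**Figure D2:**
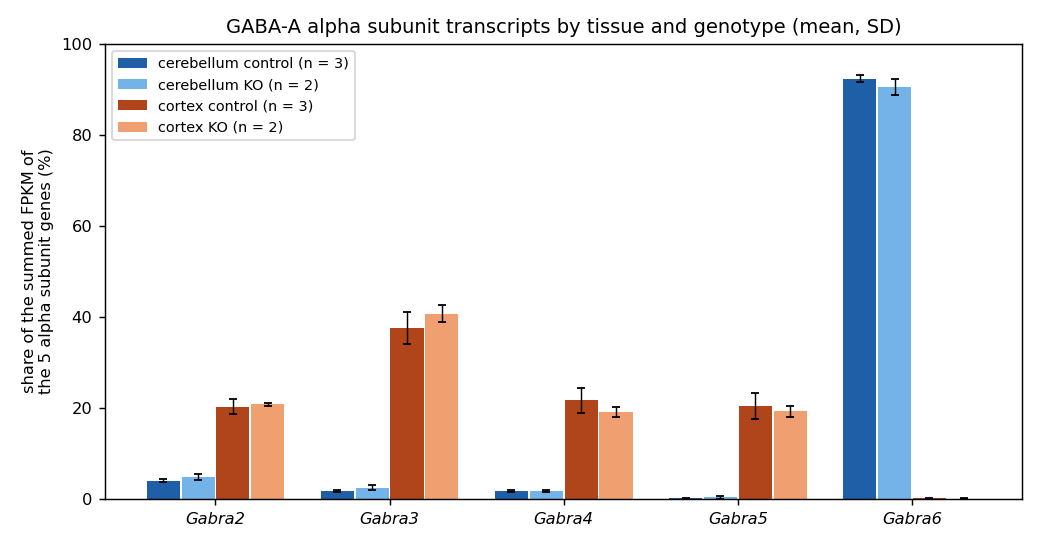
Share of each gene in the summed FPKM of the 5 alpha subunit genes, in percent, as mean bars with SD for control (n = 3) and KO (n = 2) libraries of each tissue. Gabra6 holds 92.33% in control and 90.62% in KO cerebellum, while in cortex no gene exceeds a mean of 40.69%.

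The beta subunits, which every synaptic GABA-A receptor needs, went opposite ways. Gabrb2 was at 186, 144 and 178 CPM in control cerebellum and 110, 68.8 and 120 in cortex (log2 fold change 0.76, SE 0.195). Gabrb1 was at 87.6, 69.6 and 79.3 CPM in cerebellum and 135, 107 and 153 in cortex (log2 fold change -0.74, SE 0.138). Both were called and neither overlapped between the tissues, although cortex control 2 was the lowest cortex library for each.

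The gamma subunits bring receptors to the synapse and shape their response to benzodiazepines. Gabrg3 was at 1.68, 0.925 and 1.42 CPM in control cerebellum and 27.4, 29.9 and 28.3 in cortex, a log2 fold change of -4.41 (SE 0.187, adjusted p = 3.01e-07 by edgeR's quasi-likelihood test). Gabrg1, the other gamma subunit analysed, was nearly even, with 20.4 to 23.3 CPM in cerebellum and 23.6 to 28.3 in cortex, and was not called (95% interval of the log2 fold change -0.48 to -0.014).

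Gabrd, the delta subunit of receptors that sense ambient GABA, was at 144, 153 and 135 CPM in control cerebellum and 83.2, 93.7 and 78.5 in cortex (log2 fold change 0.75, SE 0.0895). Among GABA-A subunits in control cerebellum it came next after Gabra6 per length, with 50.1 FPKM ± 3.23 against 267 ± 17.5 (SD, n = 3). The theta subunit Gabrq, known from hypothalamus and monoaminergic nuclei, was called lower in cerebellum (log2 fold change -2.34, SE 0.555) at levels of 0.0462 to 0.356 CPM against 0.658 to 1.26. The epsilon subunit Gabre stayed at 0.496 CPM or less in all 10 libraries. Of the rho subunits, best known from the retina, Gabrr1 stayed at 0.305 CPM or less, with at most 6 read pairs per library. Its levels did not overlap between the tissues, at 0.185 to 0.305 CPM in cerebellum and 0 to 0.128 in cortex over all mice. Gabre and Gabrr1 did not pass the filter, so their difference between tissues was not tested. Gabrr2 lay between 0.12 and 1.38 CPM with overlap of the tissues and was not called (log2 fold change in controls 0.27, SE 0.538).

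Several of these subunit genes are neighbours among the members. On chromosome 5, Gabrg1 lies 115 kb from Gabra2, Gabra2 474 kb from Gabra4, and Gabra4 and Gabrb1 stand head to head with 196 bases of overlap. All 4 had a fold change below 0 in cerebellum against cortex, and all but Gabrg1 were called. On chromosome 7, Gabrg3 and Gabra5 lie 20.5 kb apart on the same strand, and both were among the 3 lowest in cerebellum by fold change. On chromosome 11, Gabra6 and Gabrb2 lie 98.7 kb apart on opposite strands, and both were higher in cerebellum. Position and direction are given as a description, with no test.

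GABA-B receptors need both subunits, Gabbr1 to bind GABA and Gabbr2 to signal. Gabbr1 was at 707, 628 and 683 CPM in control cerebellum and 821, 732 and 799 in cortex, without overlap and without a call (log2 fold change -0.22, SE 0.0904, adjusted p = 0.0647 by edgeR's quasi-likelihood test). Gabbr2 overlapped between the tissues, at 256 to 322 CPM and 219 to 408 CPM. In both tissues Gabbr1 had the higher level per length, 86.6 FPKM ± 5.21 against 44.1 ± 5.22 in cerebellum and 101 ± 5.97 against 50.7 ± 15.6 in cortex (SD, n = 3).

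Of the glutamate decarboxylases, Gad1, which makes most of the basal GABA, was at 698, 576 and 776 CPM in control cerebellum and 374, 436 and 367 in cortex (log2 fold change 0.80, SE 0.127). Gad2, the form tied to synaptic vesicles, was even, at 144 to 208 CPM and 172 to 197 CPM, with a 95% interval of the log2 fold change from -0.33 to 0.28. Slc32a1, the vesicular GABA transporter, was higher in cerebellum, at 176, 143 and 180 CPM against 110, 135 and 98.9 in cortex (log2 fold change 0.53, SE 0.133), though 24.9% of its exonic bases lie in another gene and reads were counted without strand. Without cerebellum control 1 or 3, or cortex control 1 or 3, its fold change was 0.42 to 0.50 and no longer passed the threshold of size.

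The plasma membrane transporters, which take GABA up from outside the cell, split between the tissues. Slc6a11, the astrocyte transporter, was at 39.9, 40.9 and 43.2 CPM in control cerebellum and 139, 113 and 134 in cortex, a log2 fold change of -1.64 (SE 0.0962, adjusted p = 1.93e-06 by edgeR's quasi-likelihood test). Slc6a13, known from meninges and vessels, was at 15.8, 8.37 and 9.76 CPM in cerebellum and 7.61, 1.67 and 2.64 in cortex (log2 fold change 1.52, SE 0.489). The sums of 10 meningeal fibroblast markers were 270, 97.3 and 213 CPM in control cerebellum and 92.6, 31.2 and 44.5 in cortex, and the part of these cells in the difference was not tested. The Slc6a13 call was lost with DESeq2 (adjusted p = 0.0727) and without cerebellum control 1 or 3 or cortex control 3 (adjusted p = 0.0519 to 0.105).

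Abat, the GABA transaminase that starts breakdown, was at 389, 350 and 406 CPM in control cerebellum and 286, 285 and 277 in cortex, which passed the adjusted p but not the threshold of size (log2 fold change 0.43, SE 0.0844, adjusted p = 0.00259 by edgeR's quasi-likelihood test). Aldh5a1, the succinic semialdehyde dehydrogenase of the next step, was at 106 to 124 CPM and 93.9 to 104 CPM. At the postsynapse, the scaffold gephyrin (Gphn) was at 79.5 to 87 CPM in cerebellum and 67.5 to 71.6 in cortex, and the receptor partner Lhfpl4 at 105 to 119 and 134 to 161, both past the adjusted p and below the threshold of size. The adhesion protein Nlgn2 overlapped between the tissues. The gephyrin partner Iqsec3 was called lower in cerebellum (log2 fold change -0.60, SE 0.222, adjusted p = 0.0471), but its libraries overlapped, since cortex control 2 held 127 CPM and the other cortex controls 227 each, and the call was lost without any control library but cortex control 2 (adjusted p = 0.0611 to 0.144).

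The KO mice, which share no library with the controls, gave the same tissue comparison a second time. There 16 of 25 genes were called, beside 36.8% of 19593 genes tested, and 13 of them were called in controls too. The share of all genes called in both sets of mice was not determined, so the 13 are given as a description only. Gabrb2 and Gabrq were called in controls alone, and Abat, Gabbr1 and Gabbr2 in KO mice alone. Gabrb2 in KO mice and Abat in controls missed the threshold of size only, with log2 fold changes of 0.44 and 0.43. Their adjusted p was 0.0151 and 0.00259 by edgeR's quasi-likelihood test. Gabrq had 41 read pairs in cerebellum KO 2 and 5 in cerebellum KO 1. For Gabra3, Gabra4 and Gad1 the log2 fold changes of KO mice, -2.54, -2.00 and 0.92, stood beside -2.79, -1.97 and 0.80 in controls. Others lay further apart, with Slc32a1 at 1.01 (SE 0.0606) beside 0.53 (SE 0.133) and Gabrd at 1.11 (SE 0.125) beside 0.75 (SE 0.0895). Gad2, even in controls at -0.020, was at 0.22 (SE 0.0641) in KO mice and not called. Gabra5 stood at -4.21 (SE 0.397) beside -5.72, and Slc6a11 at -0.85 (SE 0.229) beside -1.64. Both rest on cerebellum KO 2, without which the KO values were -5.55 for Gabra5 and -1.32 for Slc6a11, while without cerebellum KO 1 they were -3.61 and -0.49. The Slc6a11 call of KO mice was lost with DESeq2 and without cerebellum KO 1 or cortex KO 2.

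**Figure D3:**
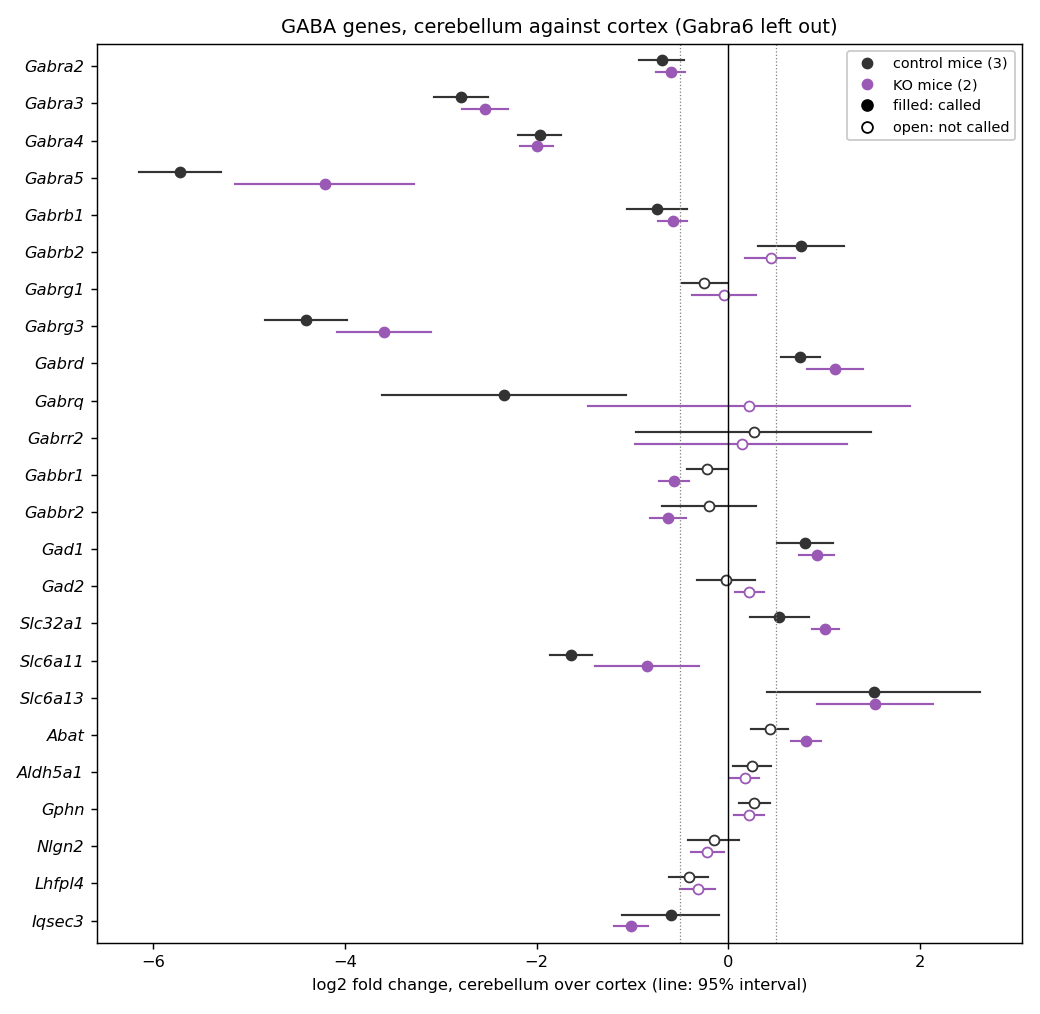
Log2 fold change of cerebellum over cortex with its 95% interval for each gene tested except Gabra6, in control mice (3, black) and KO mice (2, purple), with filled points for called genes and dotted lines at the threshold of size. Gabra5, Gabrg3, Gabra3 and Gabra4 lie far below 0 in both sets of mice, and Gabrq lies at -2.34 in controls and 0.22 in KO mice.

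The other genes of the pathway were taken from 5 lists and compared between the control tissues in the same fit, in which 40.5% of all genes were called, 19.1% higher and 21.5% lower. Among 20 scaffold and trafficking genes, 10 were called, 1 higher and 9 lower in cerebellum, led by Shisa7, an auxiliary subunit of GABA-A receptors (log2 fold change -3.13, SE 0.113), and including Slitrk3 (-2.03), Plcl2 (-1.31) and Gabarapl1 (-1.01). Of 11 GABA-B partners and effectors, 6 were called, 3 in each direction, with the auxiliary subunit Kctd16 at -4.70 (SE 0.275) and its relatives Kctd12 at 1.77 (SE 0.133) and Kctd8 at 1.13 (SE 0.197). Chloride transport genes gave 2 calls of 10, with the importer Slc12a2 at 1.01 (SE 0.111) and the channel Clcn2 at -0.51. Of 6 glycine receptor and transporter genes tested, 4 were called, with Slc6a5, the neuronal glycine transporter, higher in cerebellum by a log2 fold change whose 95% interval was 8.35 to 9.65, and the receptor subunit Glra2 at -3.07 (SE 0.194). The list of glutamine and GABA supply gave 9 calls of 14, 4 higher and 5 lower, among them the glutamine carrier Slc38a1 at 1.57 (SE 0.116) and the glutamate carrier Slc1a1 at -1.97 (SE 0.0786). Since reads were counted without strand, Kctd12, Slc1a1 and Gabarapl1 are less certain, with 64.2%, 31.9% and 28.3% of their exonic bases in another gene.

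In the cerebellum of Snx14-KO mice the gene that passed was Slc6a11, the astrocyte GABA transporter, which rose. Gabbr1 was lower by a smaller amount, and the granule cell subunits Gabra6 and Gabrd and the synthesis genes Gad1 and Gad2 were not called. Of 24 genes tested, 1 was called, beside 1.55% of 19447 genes in all. An unadjusted p under 0.05 was reached by 10 of the 24, 7 higher and 3 lower, beside 13.4% of all genes, and for 9 of the 24 the KO and control libraries did not overlap, beside 30.0%. The median log2 fold change was 0.014, beside 0.001 over all genes tested. Gabre, Gabrq and Gabrr1 did not pass the filter.

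Slc6a11 (chr6:114131241-114249952, plus strand, 5050 exonic bases) was at 39.9, 40.9 and 43.2 CPM in control cerebella, 58.4 CPM in KO 1 and 104 in KO 2. Both KO libraries lay above all controls, and KO 2 was far above KO 1. The log2 fold change was 0.97 (SE 0.197, 95% interval 0.52 to 1.42, adjusted p = 0.0479 by edgeR's quasi-likelihood test), and DESeq2 gave an adjusted p of 0.0407. Without KO 2 the log2 fold change was 0.49 (adjusted p = 0.0638), without KO 1 it was 1.33 (adjusted p = 0.00501), and leaving out any control gave 0.94 to 1.00 with adjusted p = 0.083 to 0.206, so that the call held only without KO 1. Markers of astrocytes and Bergmann glia were also higher in sum in both KO cerebella, but not higher in KO 2 than in KO 1. Their 12 genes summed to 5263, 4770 and 5148 CPM in controls, 6467 in KO 1 and 6279 in KO 2. Of the 12, 5 were called higher and 1 lower. The part of these cells in the Slc6a11 change was not tested.

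Gabra5 was also high in KO 2 alone, with 4.22 CPM against 1.1 in KO 1 and 0.74 to 1.42 in controls. Its log2 fold change was 1.35 (SE 0.52, adjusted p = 0.304 by edgeR's quasi-likelihood test), and 0.04 without KO 2. Gabrq and Gabre, which did not pass the filter, were highest in the same library, at 1.7 CPM beside 0.0462 to 0.356 and at 0.496 CPM beside 0.102 to 0.165. Chosen after their values were seen, the brainstem and spinal cord glycine receptor gene Glra1 was at 5.46 CPM in KO 2 beside 0.494 to 1.17 in the other cerebella, and the noradrenaline transporter Slc6a2 at 3.39 CPM beside 0.139 to 0.384. The 7 markers of monoaminergic neurons, Slc6a2 among them, summed to 28 CPM in KO 2 and 16.7 to 26 in the others. Slc6a3 and Slc6a4 were at 0 in at least 1 library. Th, of the same list, was at 15.4 CPM in KO 2, inside the range of the other cerebella (11.3 to 20.4). Dbh was at 1.74 CPM in KO 2 beside 0.0933 to 0.604. Whether other tissue in this sample had a part in these levels was not tested.

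Both GABA-B subunits were below all controls in KO cerebellum. Gabbr1 was at 707, 628 and 683 CPM in controls and 514 and 504 in KO, which passed the adjusted p but not the threshold of size (log2 fold change -0.41, SE 0.0837, adjusted p = 0.0492 by edgeR's quasi-likelihood test). By the same test the adjusted p was 0.204 or 0.198 without control 1 or 3 and 0.0122 without control 2. DESeq2 gave 4.64e-06. Without KO 1 or KO 2 the log2 fold change was -0.42 or -0.40. Gabbr2 was at 322, 256 and 307 CPM in controls and 254 and 230 in KO (log2 fold change -0.29, SE 0.104, adjusted p = 0.26). Purkinje cell markers were lower in the same libraries. Their 12 genes summed to 10573, 8728 and 10429 CPM in controls and 4517 and 4397 in KO, and all 12 were called lower. The part of Purkinje cells in the GABA-B levels was not tested.

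None of the other receptor subunits was called in KO cerebellum. Gabra6 was at 654 and 518 CPM beside 637 to 716 in controls, and its 95% interval of the log2 fold change ran from -0.45 to 0.068. Gabrd was at 176 and 134 CPM beside 135 to 153. The 10 granule cell markers summed to 4277 to 5087 CPM in controls and 5022 and 4414 in KO, with none of the 10 called. Gabra3 (22.9 and 26.8 CPM beside 18.5 to 21.4), Gabrb1 (101 and 94.9 beside 69.6 to 87.6) and Gabrg1 (25 and 27.6 beside 20.4 to 23.3) lay above all controls, with log2 fold changes of 0.33, 0.31 and 0.25 and adjusted p of 0.179 to 0.329 by edgeR's quasi-likelihood test. Gabra4 lay below, at 26.4 and 26.1 CPM beside 27.9 to 33.9 (log2 fold change -0.24, adjusted p = 0.355). Gabra2 was at 96.8 and 93.7 CPM beside 84.8 to 94 and Gabrb2 at 167 and 130 beside 144 to 186, both with overlap. The fold changes of the low genes were larger and wider. Gabrg3 was at 1.54 and 2.36 CPM beside 0.925 to 1.68 (log2 fold change 0.54, 95% interval -0.22 to 1.31), and Gabrr2 at 1.04 and 1.2 CPM, above controls at 0.607 to 0.864 (0.57, -0.20 to 1.34).

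Synthesis and vesicle genes stayed within the range of the controls in KO cerebellum. Gad1 was at 663 and 601 CPM beside 576 to 776 (95% interval of the log2 fold change -0.41 to 0.17), Gad2 at 175 and 167 beside 144 to 208 (-0.41 to 0.21), and Slc32a1 at 151 in both KO mice beside 143 to 180 (-0.37 to 0.079). Abat was above all controls, at 481 and 467 CPM beside 389, 350 and 406, with a log2 fold change of 0.30 (SE 0.0838, adjusted p = 0.139 by edgeR's quasi-likelihood test). Slc6a13 was at 15.7 and 20.9 CPM beside 15.8, 8.37 and 9.76 (log2 fold change 0.69, SE 0.253, adjusted p = 0.279). The fibroblast markers summed to 210 and 341 CPM in KO and 270, 97.3 and 213 in controls, and their part in the Slc6a13 level was not tested. Aldh5a1, Gphn, Nlgn2, Lhfpl4 and Iqsec3 overlapped between KO and control, and the upper and lower bounds of their intervals lay between -0.39 and 0.23.

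Among the other pathway genes of KO cerebellum, 3 were called. Glul, the glutamine synthetase of astrocytes, was at 945, 896 and 1028 CPM in controls and 1647 and 1628 in KO (log2 fold change 0.77, SE 0.0926, adjusted p = 0.00526 by edgeR's quasi-likelihood test). Slc38a3, a glutamine transporter of the same cells, was at 73.6, 66.9 and 71 CPM in controls and 99.9 and 104 in KO (log2 fold change 0.52, SE 0.0651, adjusted p = 0.00598). Insyn1, a protein of inhibitory postsynapses, was at 148, 149 and 157 CPM in controls and 96.5 and 100 in KO (log2 fold change -0.63, SE 0.0619, adjusted p = 0.00214). None of the 3 overlapped between the groups. They were 2 calls of 14 genes of glutamine and GABA supply and 1 of 20 scaffold and trafficking genes, beside 1.55% of all genes. The lists of GABA-B partners, chloride transport and glycine genes held no call. An unadjusted p under 0.05 was reached by 7 of 14 supply genes, 4 of 20 scaffold genes, 1 of 10 GABA-B partners, 2 of 10 chloride genes and 4 of 6 glycine genes, beside 13.4% of all genes.

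**Figure D4:**
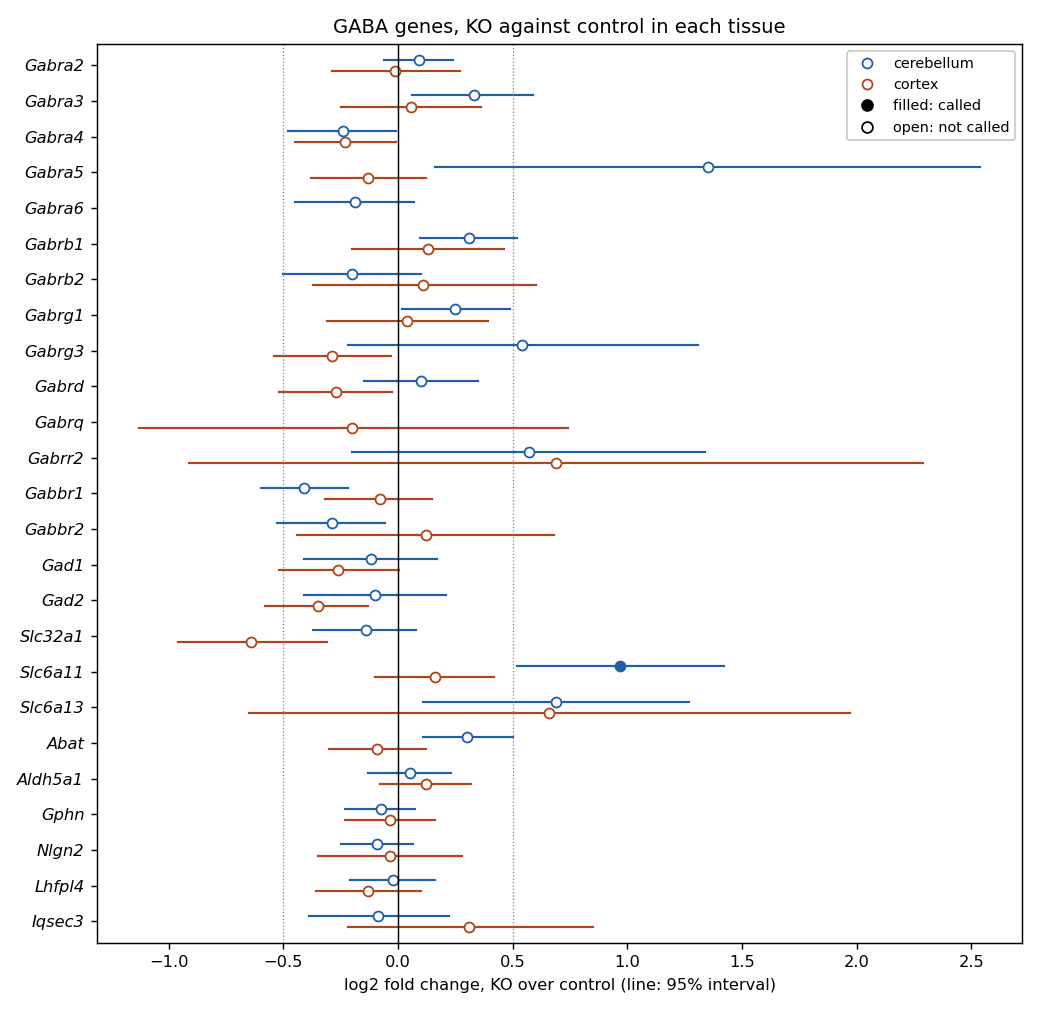
Log2 fold change of KO over control with its 95% interval for each gene tested, in cerebellum (blue) and cortex (brown), with filled points for called genes and dotted lines at the threshold of size. Slc6a11 in cerebellum at 0.97 is the filled point, and Slc32a1 in cortex at -0.64 lies farthest below 0.

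In the cortex of KO mice no GABA gene was called, and the lowest fold changes belonged to genes of GABA release and synthesis, Slc32a1 and Gad2. By edgeR's quasi-likelihood test 0 of 24 genes were called, beside 0% of 19202 genes, a background in which Snx14 itself, at a log2 fold change of -1.36, had an adjusted p of 0.754. An unadjusted p under 0.05 was reached by 5 of the 24, all lower in KO, beside 5.93% of all genes. DESeq2 called 1 gene of the list, Slc32a1, beside 49 of 34772 genes in all, 46 of them lower. For 9 of the 24 the KO and control libraries did not overlap, 1 above and 8 below, beside 24.7% of all genes. Gabra6, Gabre and Gabrr1 did not pass the filter.

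Slc32a1 was at 110, 135 and 98.9 CPM in control cortices and 74 and 72.1 in KO (log2 fold change -0.64, SE 0.138, 95% interval -0.96 to -0.31). The adjusted p was 0.754 by edgeR's quasi-likelihood test and 0.0317 by DESeq2. Gad2 was at 172, 197 and 184 CPM in controls and 145 and 140 in KO (log2 fold change -0.35, SE 0.0957, adjusted p = 0.754). Gad1 was at 374, 436 and 367 CPM in controls and 325 in both KO mice, with an interval from -0.52 to 0.002. All 3 lay below every control, and control 2 was the highest library for each.

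Marker genes of striatal projection neurons, which release GABA and lie under the cortex, were also lower in KO than in control cortices. The 14 markers summed to 2675, 5813 and 2468 CPM in controls and 1558 and 885 in KO. All 14 reached an unadjusted p under 0.05 while none was called. The 14 markers of forebrain interneurons, the GABA neurons of the cortex itself, summed to 680, 653 and 654 CPM in controls and 657 and 662 in KO. The part of striatal tissue in the Slc32a1 and Gad2 values was not tested. Control 2 had the highest striatal marker sum. Without it, Slc32a1 had a log2 fold change of -0.50 (adjusted p = 0.00673 by edgeR's quasi-likelihood test), just short of the threshold of size. Gad2 had one of -0.30 (adjusted p = 0.0471). That fit called 98 of 18968 genes in all, 78 of them lower, where the fit with control 2 called 0 of 19202. Controls 1 and 3, at 2675 and 2468 CPM, were still above both KO cortices in the striatal marker sum.

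No receptor subunit was called in KO cortex. Gabrd was at 72.2 and 67.3 CPM beside 83.2, 93.7 and 78.5, Gabrg3 at 23.5 and 22.9 beside 27.4, 29.9 and 28.3, and Gabra4 at 104 and 102 beside 113, 131 and 120. These 3 lay below all controls, with log2 fold changes of -0.27, -0.29 and -0.23 and adjusted p of 0.797 to 0.829 by edgeR's quasi-likelihood test. Gabra3 (132 and 150 CPM beside 114 to 148), Gabra2 (135 and 146 beside 122 to 156) and Gabra5 (51.2 and 49.8 beside 49.8 to 60.4) overlapped with the controls. So did Gabrb1, Gabrb2, Gabrg1, Gabrq, Gabrr2 and both GABA-B subunits, with Gabbr1 at 732 and 735 CPM beside 732 to 821. Gabrr2, at 0.12 to 1.38 CPM, had a wide interval, from -0.91 to 2.29 around a log2 fold change of 0.69.

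Of the other cortex genes, Slc6a11 was at 135 and 151 CPM in KO beside 139, 113 and 134 in controls, with a 95% interval of the log2 fold change from -0.10 to 0.42. Abat was below all controls, at 267 and 258 CPM beside 286, 285 and 277, and Iqsec3 above, at 236 and 240 CPM beside 227, 127 and 227, both with intervals that span 0. Lhfpl4 was just below the controls, at 134 and 132 CPM beside 134 to 161. Slc6a13, Aldh5a1, Gphn and Nlgn2 overlapped between the groups. No gene of the 5 pathway lists was called in cortex, and unadjusted p values under 0.05 were reached by 2 of 20 scaffold genes, 1 of 11 GABA-B partners, 1 of 10 chloride genes, 0 of 4 glycine genes and 2 of 14 supply genes, beside 5.93% of all genes.

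**Figure D5:**
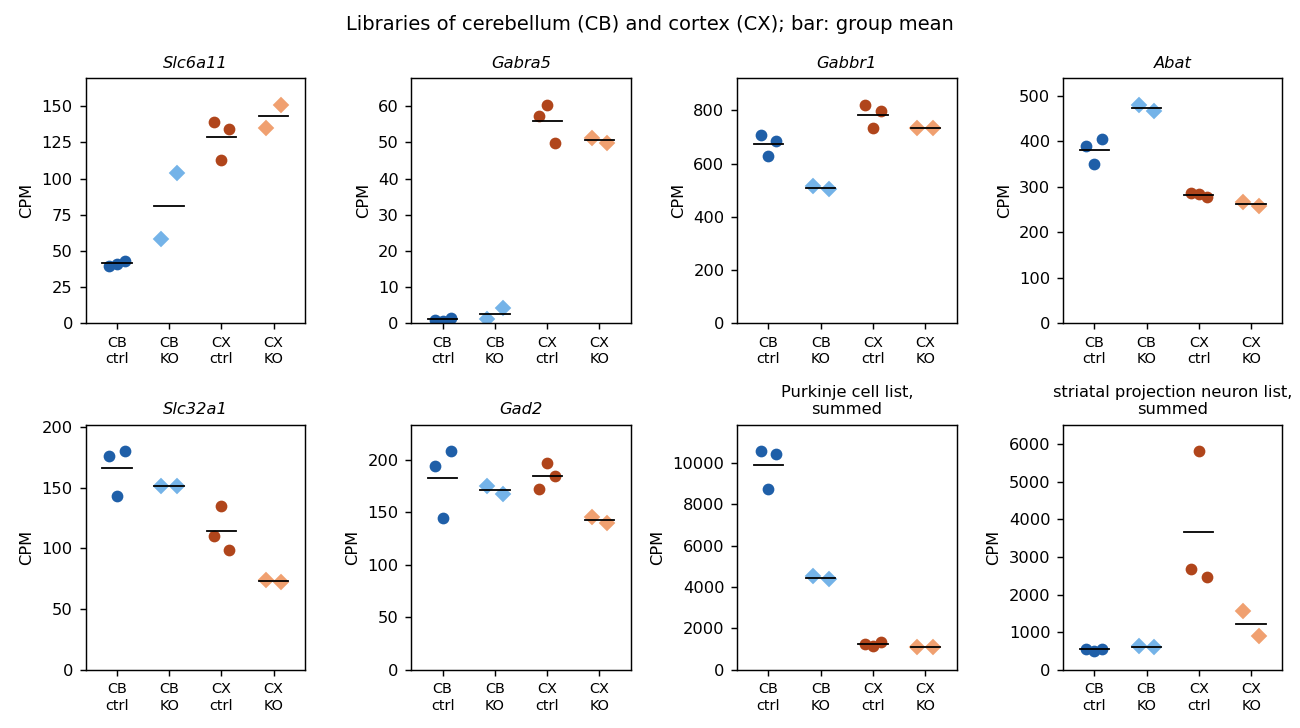
Level in each library, in CPM from 0, of 6 GABA genes and of the summed Purkinje cell and striatal projection neuron markers, for cerebellum (CB) and cortex (CX) of control (circles, n = 3) and KO (diamonds, n = 2) mice, with bars at the group means. Slc6a11 in KO cerebellum stands at 58.4 and 104 CPM, Gabbr1 at 514 and 504, and Slc32a1 in KO cortex at 74 and 72.1, below controls at 98.9 to 135.

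The KO effects of the tissues were set against each other in 1 fit of all 10 libraries. None of the 25 genes tested passed an adjusted p under 0.05, beside 0.102% of 20614 genes called. DESeq2 also called 0 of the list, beside 219 of 38493 genes in all. An unadjusted p under 0.05 was reached by 8 of the 25, 7 with the higher effect in cerebellum and 1 (Gabbr1) with the lower, beside 8.28% of all genes. The smallest adjusted p belonged to Abat, above all controls in KO cerebellum and below all controls in KO cortex, with a difference of 0.42 on the log2 scale (SE 0.116, adjusted p = 0.281 by edgeR's quasi-likelihood test). For Slc6a11 the difference was 0.83 (SE 0.266, adjusted p = 0.365) and for Slc32a1 0.51 (SE 0.183, adjusted p = 0.434). For Gabra5 it was 1.54 (SE 0.525, adjusted p = 0.396). Without cerebellum KO 1, which leaves KO 2 as the lone KO cerebellum, Slc6a11 and Gabra5 passed, with differences of 1.18 and 2.14 and an adjusted p of 0.0254 each. Without cerebellum KO 2 the differences were 0.35 (adjusted p = 0.803) and 0.20 (adjusted p = 0.979).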

How the data were processed

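RNA-seq of cerebellum and cerebral cortex from 5 mice was analysed. As the labels, file headers and methods state, reads were trimmed, then aligned with STAR to GRCm38, and the authors deposited raw counts of read pairs per gene made with featureCounts 2.0.1, without use of strand although the libraries were strand-specific, and with a pair counted for every gene it overlapped. Entries without a mouse gene identifier (26345 of 81881, holding 0.16% to 0.926% of a library) were left out. At 16088310 to 22975355 gene counts per library, counting error is small except near the count minimum.

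KO and control were compared within each tissue, the tissues within controls and within KO mice, and the KO effects as an interaction over all 10 libraries, with edgeR 4.0.16 (glmQLFit, glmQLFTest, R 4.3.3) with filterByExpr (count minimum 10), TMM scaling and Benjamini-Hochberg adjustment over all genes tested. Calls needed an adjusted p under 0.05 together with a log2 fold change beyond 0.5 in either direction, and in the interaction the adjusted p alone. The standard error is the fold change over the square root of F. CPM are TMM-scaled over all 10 libraries. The fits were tested on simulated counts with 200 changed genes. Alternatives were DESeq2 1.42.0 as test or as scaling, no filter, a block by mouse number, and leaving out each library, where an arm left with 1 library is assumed to vary like the other group.

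The animal numbers in the labels pair the 2 tissues of a mouse, and deviations from the group means correlated over genes at r = 0.164 to 0.370 within a mouse. The block by mouse changed no call of the tissue or interaction comparisons. The KO comparisons share their controls with the tissue comparison. All 27 genes are named, other pathway genes where called (at most 5 per list), and marker lists by their sums. Glra1 and the markers Slc6a2, Th and Dbh are named after their values were seen. The genes and lists were chosen with earlier results of these data known.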

Additional observations from a re-analysis of the deposited data

How the results depend on the processing

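Of 90, 45, 210, 176 and 112 alternative values for genes with an unadjusted p under 0.05 (KO in cerebellum, KO in cortex, tissue in controls, tissue in KO mice, interaction), 83, 43, 196, 172 and 106 kept direction and side of the threshold, and none changed sign. Genes with a larger p changed sign under some setting in 5 of 14, 7 of 19, 2 of 4, 3 of 3 and 5 of 17 cases. Without the filter on low counts, 4 genes were called in KO cerebellum (Slc6a11, Gabra5, Gabrq and Slc6a13), 1 in KO cortex (Slc32a1) and 4 in the interaction (Gabra5, Gabrq, Slc32a1 and Slc6a11). Over all genes, these fits called 842 of 35258, 380 of 34776 and 599 of 38501. In them edgeR drew the spread of each gene wholly from the trend over all genes (infinite prior degrees of freedom). With the filter the prior degrees of freedom were 5.4, 4.6 and 4.8. For Slc6a11 in KO cerebellum the SE was 0.087 without the filter and 0.197 with it, at log2 fold changes of 0.96 and 0.97. The part of this in the added calls was not tested. DESeq2 called 1 gene of the list in KO cortex, beside 49 of 34772 genes in all. Leaving out 1 library gave 0 to 1 calls in KO cerebellum, 0 in KO cortex, 12 to 16 for tissue in controls, 15 to 17 for tissue in KO mice, and 0 to 2 in the interaction, where 2 came without cerebellum KO 1. KO and control mice of a number are different animals, of the same sex by Xist and the Y-linked genes, and same-numbered libraries correlated at r = -0.0353 to 0.1143. A replicate block on that number left 0 calls in KO cerebellum, with Slc6a11 at 0.95 (adjusted p = 0.0914), and 0 in KO cortex. With the mouse as block, tissue calls stayed at 15 and 16 and interaction calls at 0. Genes under about 1 CPM (Gabre, Gabrq, Gabrr1, Gabrr2) limit what this depth can show.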
